A study of Homo sapiens with 3 samples.

Results

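The Wnt genes described here comprised secreted Wnt ligands, their Frizzled and LRP receptors, secreted antagonists of the pathway, and a few intracellular or feedback genes. They were chosen by gene symbol: every probe set whose single symbol in the platform annotation was a numbered WNT or FZD gene, DKK1 to DKK4, SFRP1 to SFRP5, FRZB, WIF1, LRP5, LRP6, KREMEN1, KREMEN2, AXIN1, AXIN2, LEF1, RNF43 or ZNRF3. This gave 45 of 19775 genes, read by 95 of 54675 probe sets. They were 17 Wnt ligands, 9 Frizzled receptors, 2 LRP co-receptors, 12 antagonists and Kremen receptors, and 5 intracellular and feedback genes. The set was chosen with earlier results of these arrays known, in which DKK1 already led the genes higher with estradiol, so its values are a description and support nothing further.

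The samples were 3 RNA samples of SKBR3, a human breast cancer cell line with amplified ERBB2. The line is known not to express oestrogen receptor α, and it carries GPER1, an oestrogen receptor of the membrane. Cells were kept for 4 h with 10% serum stripped on charcoal, and thus poor in steroids, before they received 1 µM estradiol, 1 µM ERα17p (a synthetic peptide with a sequence of oestrogen receptor α), or 0.1% ethanol as vehicle. RNA was taken after 3 h and hybridised to 1 Affymetrix whole-genome array per condition, so no value below has an error, a replicate check or a p-value. The labels do not name the solvent of the peptide, and they give different media for growth and for treatment.

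Wnt proteins bind a Frizzled receptor together with LRP5 or LRP6, and the receptor pair then halts the destruction of β-catenin, which enters the nucleus and acts with TCF and LEF factors. Secreted antagonists work outside the cell: Dickkopf proteins bind LRP5 and LRP6, in part together with Kremen receptors, whereas SFRP proteins, FRZB and WIF1 bind the Wnts themselves. AXIN2, LEF1, RNF43, ZNRF3 and DKK1 are known as targets that the pathway itself can induce. In breast epithelium the pathway is best known from the mammary tumours that Wnt1 causes in mice.

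The deposited values centre on 0 on every array, and from their form each was taken as a distance from a baseline that the authors had removed per probe set. They were read as log2, although no source names the base. Genes can therefore be compared between arrays, but how strongly any gene was expressed cannot be read, and a gene that these cells hardly express cannot be told from an expressed one. The same holds for the markers of the line: ERBB2, GRB7, KRT8, KRT18, KRT19 and EPCAM, 6 of 6 measured, differed by -0.13 to 0.28 log2 units between any pair of arrays. Markers of fibroblasts, leukocytes and endothelium, 8 of 8 measured, differed by -0.22 to 0.18. Fewer cells of a type and less RNA per cell cannot be told apart in such samples. A gene's value is the median over its probe sets, differences are on the log2 scale, and "higher" and "lower" mean a difference of at least 1.5-fold (0.585 log2 units). The array labelled vehicle was unlike the treated ones. The standard deviation over all genes was 0.10 log2 units on the estradiol array, 0.11 on the ERα17p array and 0.27 on the array labelled vehicle. In the same order the 3′ minus 5′ difference of the ACTB control was 0.02, -0.04 and 0.30. It is a sign of RNA integrity relative to the baseline only, because both of its values are distances from that baseline. Each comparison with vehicle below rests on the array labelled vehicle. Whether RNA integrity or the array itself had a part in those differences was not tested.

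Few Wnt genes differed by 1.5-fold, and those that did were spread over 3 roles. DKK1, a secreted antagonist, was higher on both treated arrays than on the array labelled vehicle. FZD7, a Wnt receptor, was lower on both. WNT9B, a ligand, was higher with estradiol, and FZD9, a receptor, was lower with ERα17p. The other 41 genes passed 1.5-fold in none of the 3 comparisons. In counts, estradiol minus vehicle gave 2 higher genes, where 0.809% of all genes were higher, and 1 lower gene, where 2.93% of all genes were lower. ERα17p minus vehicle gave 1 higher, where 0.582% of all genes were higher, and 2 lower, where 2.14% of all were lower. Estradiol minus ERα17p gave 0 and 0, where 0.147% of all genes were higher and 0.207% lower, 0.354% together. In percent of the Wnt genes, 6.67% passed in either direction in each comparison with vehicle, against 3.74% and 2.73% of all genes. With counts this small those shares describe single genes rather than the set.

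Promoters of DKK1 and WNT9B are shown because these were the 2 genes that were higher with a treatment. They are the 250 bases before each gene's start, 5′ to 3′ on the gene's strand, from RefSeq on build GRCh38.p14. Capitals mark a match to a searched motif.

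DKK1, chr10:52314031-52314280, + strand: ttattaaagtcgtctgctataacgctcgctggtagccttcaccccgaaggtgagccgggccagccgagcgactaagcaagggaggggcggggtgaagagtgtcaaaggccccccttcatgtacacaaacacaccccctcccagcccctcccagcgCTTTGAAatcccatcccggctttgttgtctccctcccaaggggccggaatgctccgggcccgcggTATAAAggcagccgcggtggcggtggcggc

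WNT9B, chr17:46851333-46851582, + strand: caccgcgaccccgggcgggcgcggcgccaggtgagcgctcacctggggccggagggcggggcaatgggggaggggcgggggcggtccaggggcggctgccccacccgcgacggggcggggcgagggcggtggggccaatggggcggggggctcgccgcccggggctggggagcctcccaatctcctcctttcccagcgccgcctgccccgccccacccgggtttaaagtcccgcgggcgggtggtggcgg

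Searches covered both strands. For TCF and LEF factors the letters were CTTTGAT or, as a variant of it, CTTTGAA. The letters AGGTCA stood for a half-site of the oestrogen response element, TGANTCA for AP-1 and TATAAA for the TATA box. In DKK1 CTTTGAA lay at bases -95 to -89 and TATAAA at -30 to -25, where -1 is the base just before the start, and they do not overlap. Among 35116 promoter windows of this length, 3.80% held CTTTGAA and 10.7% held TATAAA. The form CTTTGAT stood in 2.26% of them, AGGTCA in 12.1% and TGANTCA in 6.57%. WNT9B held none of the 5. Of the 45 Wnt genes, 28 had a window in the table, with 32 windows in all. The 1 match of CTTTGAA among them was that of DKK1. TATAAA stood in DKK1 and WNT5B, AGGTCA in WNT16 and TGANTCA in RNF43, while CTTTGAT stood in none. The windows of the Wnt genes had a median of 68.4% G and C, against 58.0% for all promoters. DKK1 had 62.8% and WNT9B 81.2%. A match describes letters and does not show that a factor binds there.

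**Figure D1:**
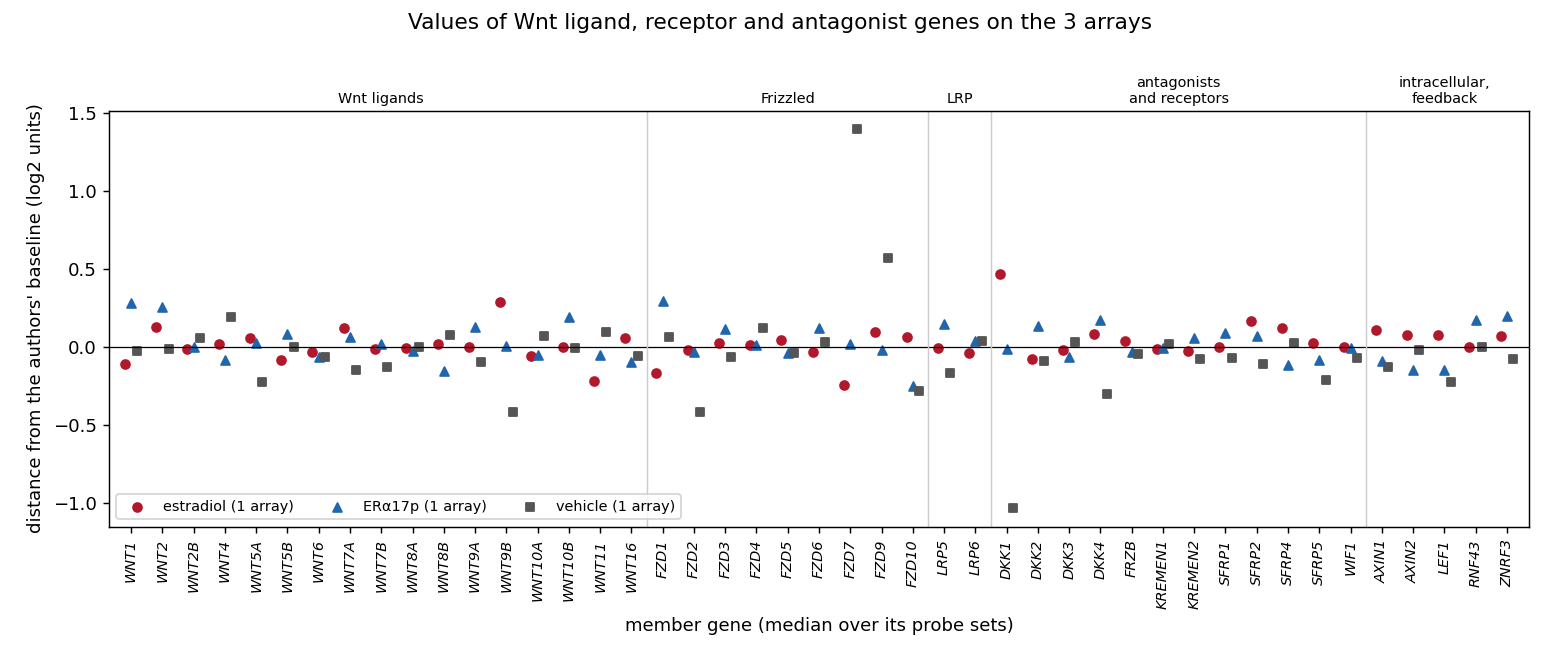
Value of each of the 45 Wnt genes on the estradiol, ERα17p and vehicle arrays (1 array each), as distance from the authors' baseline in log2 units, with genes grouped by role. Most points lie near 0, while on the array labelled vehicle FZD7 stands at 1.40 and DKK1 at -1.03.

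Among the secreted antagonists, DKK1 was at 0.47 log2 units from the baseline on the estradiol array, at -0.01 on the ERα17p array and at -1.03 on the array labelled vehicle. The 3 arrays thus fell in that order, with estradiol highest and vehicle lowest. The difference was 1.499 for estradiol minus vehicle (2.83-fold), the highest of all 19775 genes, and 1.02 for ERα17p minus vehicle (2.03-fold), the third highest. Estradiol minus ERα17p, which leaves out the array labelled vehicle, was 0.48 (1.40-fold), rank 109 from the top and below 1.5-fold. On the array labelled vehicle the value of DKK1, below the baseline, was the third lowest of all genes, and on the estradiol array the rank was 11 from the top. DKK1 was read by 1 probe set, so its values have no second reading here. Set against the baseline in place of the array labelled vehicle, neither treated array passed 1.5-fold in DKK1. Hardly any of the 19775 genes did: 1 was above and 10 below it on the estradiol array, and 13 and 1 on the ERα17p array. A baseline that is a median over these and further arrays would keep similar arrays near 0. That outcome is therefore no check on the difference from vehicle.

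The other Dickkopf genes did not follow DKK1 past 1.5-fold. DKK4, which also blocks LRP5 and LRP6, was at 0.08 on the estradiol array, 0.17 on the ERα17p array and -0.30 on the array labelled vehicle. Its differences of 0.38 and 0.47 from vehicle had the sign of those of DKK1, and estradiol minus ERα17p was -0.09. DKK2, which can act for or against the pathway, differed by 0.01 with estradiol and 0.22 with ERα17p. DKK3, a divergent family member not known to bind LRP6 as the others do, differed by -0.05 and -0.10, and its 6 probe sets ran from -0.24 to 0.18 with estradiol and from -0.18 to -0.01 with ERα17p.

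The Wnt-binding antagonists showed small differences. For estradiol minus vehicle, the gene values of SFRP1, SFRP2, SFRP4, SFRP5 and FRZB lay between 0.07 and 0.27. All 5 were above 0, as were 56.1% of all genes. The lowest probe sets of SFRP1, SFRP4 and FRZB lay below 0, at -0.003, -0.08 and -0.03. SFRP2 was at 0.16, 0.07 and -0.11 on the estradiol, ERα17p and vehicle arrays. For ERα17p minus vehicle the same genes lay between -0.14 and 0.18, with SFRP4 below 0. WIF1 differed by 0.07 in both. KREMEN1 and KREMEN2, receptors that take up LRP6 together with Dickkopf proteins, differed by -0.03 and 0.05 with estradiol and by -0.02 and 0.13 with ERα17p. Over all 12 antagonists and Kremen receptors, 1 was higher (8.33%) and 0 were lower in each comparison with vehicle. Of all genes 0.809% were higher and 2.93% lower with estradiol, and 0.582% and 2.14% with ERα17p. The 1 higher gene was DKK1 in both. Of the 12, 10 lay above 0 with estradiol (83.3%, against 56.1% of all genes) and 9 with ERα17p (75.0%, against 58.0%). On the array labelled vehicle 9 of the 12 had their lowest value of the 3 arrays, as did 45.4% of all genes. Between estradiol and ERα17p 7 of 12 lay above 0 and none passed 1.5-fold.

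Frizzled receptors held the widest difference of all the Wnt genes. FZD7 was at -0.24 on the estradiol array, 0.02 on the ERα17p array and 1.40 on the array labelled vehicle. Both treated arrays were thus close to each other and the vehicle array was far above them. FZD7 differed by -1.64 for estradiol minus vehicle (3.12-fold lower) and by -1.38 for ERα17p minus vehicle (2.60-fold lower), ranks 63 and 68 from the lowest of all genes. Its 2 probe sets had the same sign in each comparison, at -2.15 and -1.13 with estradiol and at -1.91 and -0.85 with ERα17p. Both carry the suffix _s, which marks probes that can take up several transcripts. Against the baseline neither treated array passed 1.5-fold in FZD7 either. As for DKK1, this is no check on the difference from vehicle, because hardly any gene passed that way. Estradiol minus ERα17p was -0.26 for FZD7, with probe sets at -0.28 and -0.24.

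FZD9, read by 1 probe set, was at 0.10 on the estradiol array, -0.02 on the ERα17p array and 0.57 on the array labelled vehicle. It too was highest on the array labelled vehicle, and it differed by -0.47 with estradiol and by -0.59 with ERα17p (1.51-fold lower), just past the threshold. FZD2 pointed the other way, at -0.02, -0.03 and -0.42 on the same arrays, with differences of 0.39 from vehicle with both treatments. Its 2 probe sets disagreed in size: 1 was higher by 0.73 with estradiol and 0.75 with ERα17p, and the other differed by 0.05 and 0.02. FZD10, read by 1 probe set, was at 0.06 with estradiol, -0.25 with ERα17p and -0.28 with vehicle.

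The gene value of FZD1 had opposite signs in the comparisons with vehicle. Of its 3 probe sets 1 did not, at -0.06 with estradiol and -0.14 with ERα17p. FZD1 was at -0.17 on the estradiol array, 0.30 on the ERα17p array and 0.06 on the array labelled vehicle. The array labelled vehicle thus lay between the treated ones. Estradiol minus ERα17p was -0.46 (1.38-fold), the widest such negative difference among the Wnt genes. Of its 3 probe sets, 2 lay at -0.50 and -0.46 and the third at 0.07. FZD3, FZD4, FZD5 and FZD6 differed by -0.11 to 0.18 in the comparisons with vehicle. In all, 0 of 9 receptors were higher and 1 was lower (11.1%) with estradiol, where 0.809% and 2.93% of all genes were. With ERα17p 0 were higher and 2 lower (22.2%), where 0.582% and 2.14% of all genes were. Counts this small describe single genes rather than the receptors as a group. The LRP co-receptors did not pass: LRP5 differed by 0.16 with estradiol and 0.32 with ERα17p, and LRP6 by -0.08 and -0.00.

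Wnt ligands were the largest group, and 1 of 17 was higher with estradiol (5.88%, against 0.809% of all genes), a share that rests on 1 gene. WNT9B was at 0.29 on the estradiol array, 0.00 on the ERα17p array and -0.42 on the array labelled vehicle, the same order of arrays as in DKK1. It differed by 0.71 for estradiol minus vehicle (1.63-fold), rank 44 from the top of all genes, by 0.42 for ERα17p minus vehicle and by 0.29 for estradiol minus ERα17p, all from 1 probe set. The other 16 ligands lay between -0.31 (WNT11) and 0.29 (WNT5A) with estradiol and between -0.27 (WNT4) and 0.31 (WNT1) with ERα17p. WNT5A, which signals mostly without β-catenin, was at 0.06, 0.03 and -0.23 on the estradiol, ERα17p and vehicle arrays, and its 2 probe sets both lay above 0 against vehicle in both comparisons. WNT4, a ligand of mammary branching downstream of progesterone in the mouse, differed by -0.17 with estradiol and -0.27 with ERα17p. Its 3 probe sets disagreed in sign, from -0.35 to 0.07 with estradiol and from -0.33 to 0.07 with ERα17p. WNT1 was at -0.11 with estradiol, 0.28 with ERα17p and -0.02 with vehicle, which gave the widest ligand difference between the treated arrays, -0.39. The median over the 17 ligands was 0.01 with estradiol and 0.08 with ERα17p.

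Intracellular and feedback genes did not pass 1.5-fold in any comparison. AXIN2, a scaffold of the β-catenin destruction complex and a widely used readout of the pathway, was at 0.08 on the estradiol array, -0.15 on the ERα17p array and -0.02 on the array labelled vehicle. It differed by 0.10 for estradiol minus vehicle, by -0.13 for ERα17p minus vehicle and by 0.23 for estradiol minus ERα17p. All 4 AXIN2 probe sets lay above 0 in the last of these, from 0.18 to 0.40. Against vehicle their signs were mixed, from -0.11 to 0.34 with estradiol and from -0.29 to 0.03 with ERα17p. LEF1, a DNA-binding partner of β-catenin, was at 0.07, -0.15 and -0.22 on the same arrays, and its 3 probe sets ran from 0.04 to 0.39 for estradiol minus ERα17p. AXIN1, the constitutive scaffold, had the same sign, at 0.20. RNF43 and ZNRF3, ubiquitin ligases that remove Frizzled receptors from the cell surface, had the opposite one, at -0.17 and -0.13. RNF43 was at 0.00, 0.18 and -0.00 on the estradiol, ERα17p and vehicle arrays, and ZNRF3 at 0.07, 0.20 and -0.08, each from 1 probe set.

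**Figure D2:**
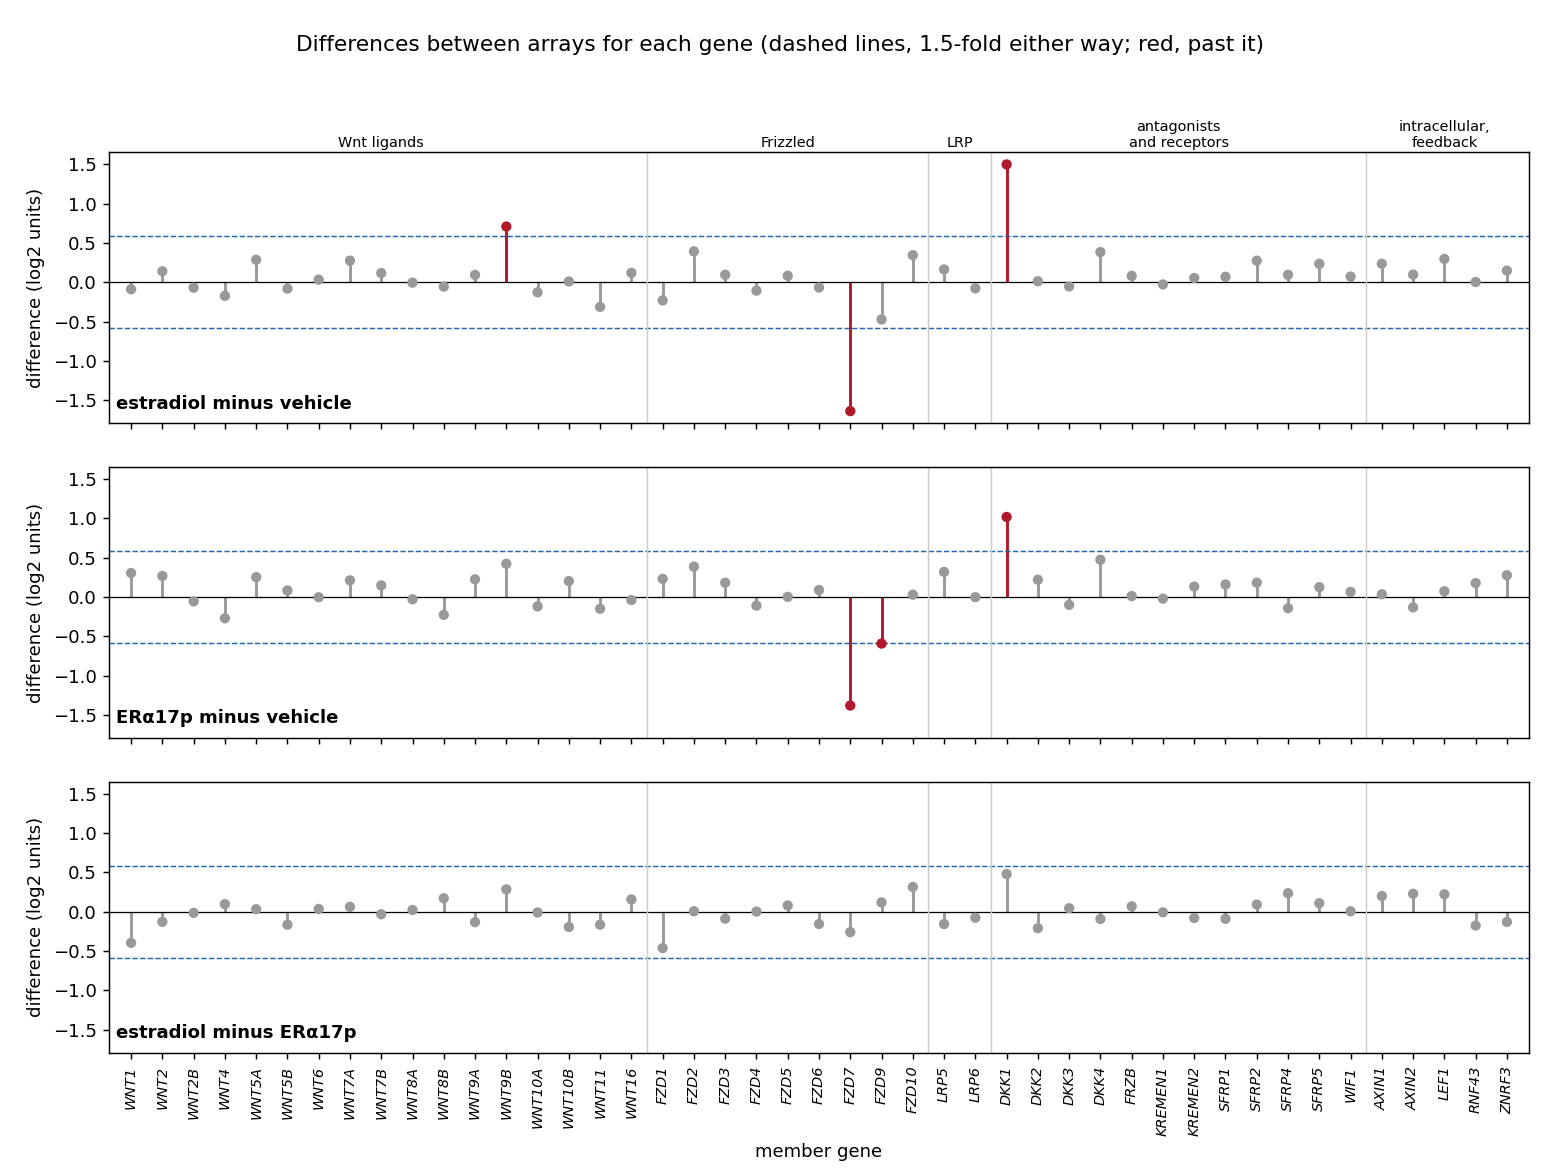
Differences between arrays for the 45 Wnt genes in log2 units, with a panel each for estradiol and ERα17p against vehicle and another for estradiol minus ERα17p, with dashed lines at 1.5-fold either way and genes past them in red. DKK1 (1.499 and 1.02) and FZD7 (-1.64 and -1.38) are past the lines in both comparisons with vehicle, and no gene is past them in the third panel.

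Over the 45 genes together the median was 0.07 with estradiol, 0.08 with ERα17p and 0.00 between them, and over all genes it was 0.03, 0.03 and -0.01. The comparisons with vehicle share 1 array and are not separate evidence of each other. On it, 25 of the 45 genes had their lowest value (55.6%, against 45.4% of all genes) and 12 their highest (26.7%, against 31.2%).

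Near the threshold, WNT9B at 0.71 lay just inside for estradiol minus vehicle, and FZD9 at -0.47 and FZD2 at 0.39 just outside. For ERα17p minus vehicle FZD9 at -0.59 lay just inside, and DKK4 at 0.47 and WNT9B at 0.42 just outside. For estradiol minus ERα17p DKK1 at 0.48 and FZD1 at -0.46 came closest. Among the Wnt genes that passed in no comparison, differences ran from -0.31 to 0.39, from -0.27 to 0.47 and from -0.46 to 0.32 in the order just given.

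Probe sets of the same gene, which are repeat readings of 1 RNA sample, often disagreed. Of the 45 genes, 26 had at least 2 probe sets. All probe sets of a gene had 1 sign in 10 of the 26 in every comparison (38.5%), against 46.3% of 10523 genes for estradiol minus vehicle, 45.9% for ERα17p minus vehicle and 38.5% for estradiol minus ERα17p. The median distance between the highest and the lowest probe set of a gene was 0.37 log2 units for estradiol minus vehicle, 0.29 for ERα17p minus vehicle and 0.26 for estradiol minus ERα17p. Of the 45 genes, 39, 37 and 39 differed by less than that between the arrays compared, in the same order. By single probe sets, 3 of 95 were higher and 2 lower with estradiol, and 2 were higher and 3 lower with ERα17p. Of all 41091 probe sets with 1 symbol, 1.38% were higher and 3.71% lower with estradiol, and 0.886% were higher and 2.76% lower with ERα17p. The reading added to the gene count on the higher side was the same FZD2 probe set in both comparisons, and on the lower side FZD7 counts with both of its probe sets.

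**Figure D3:**
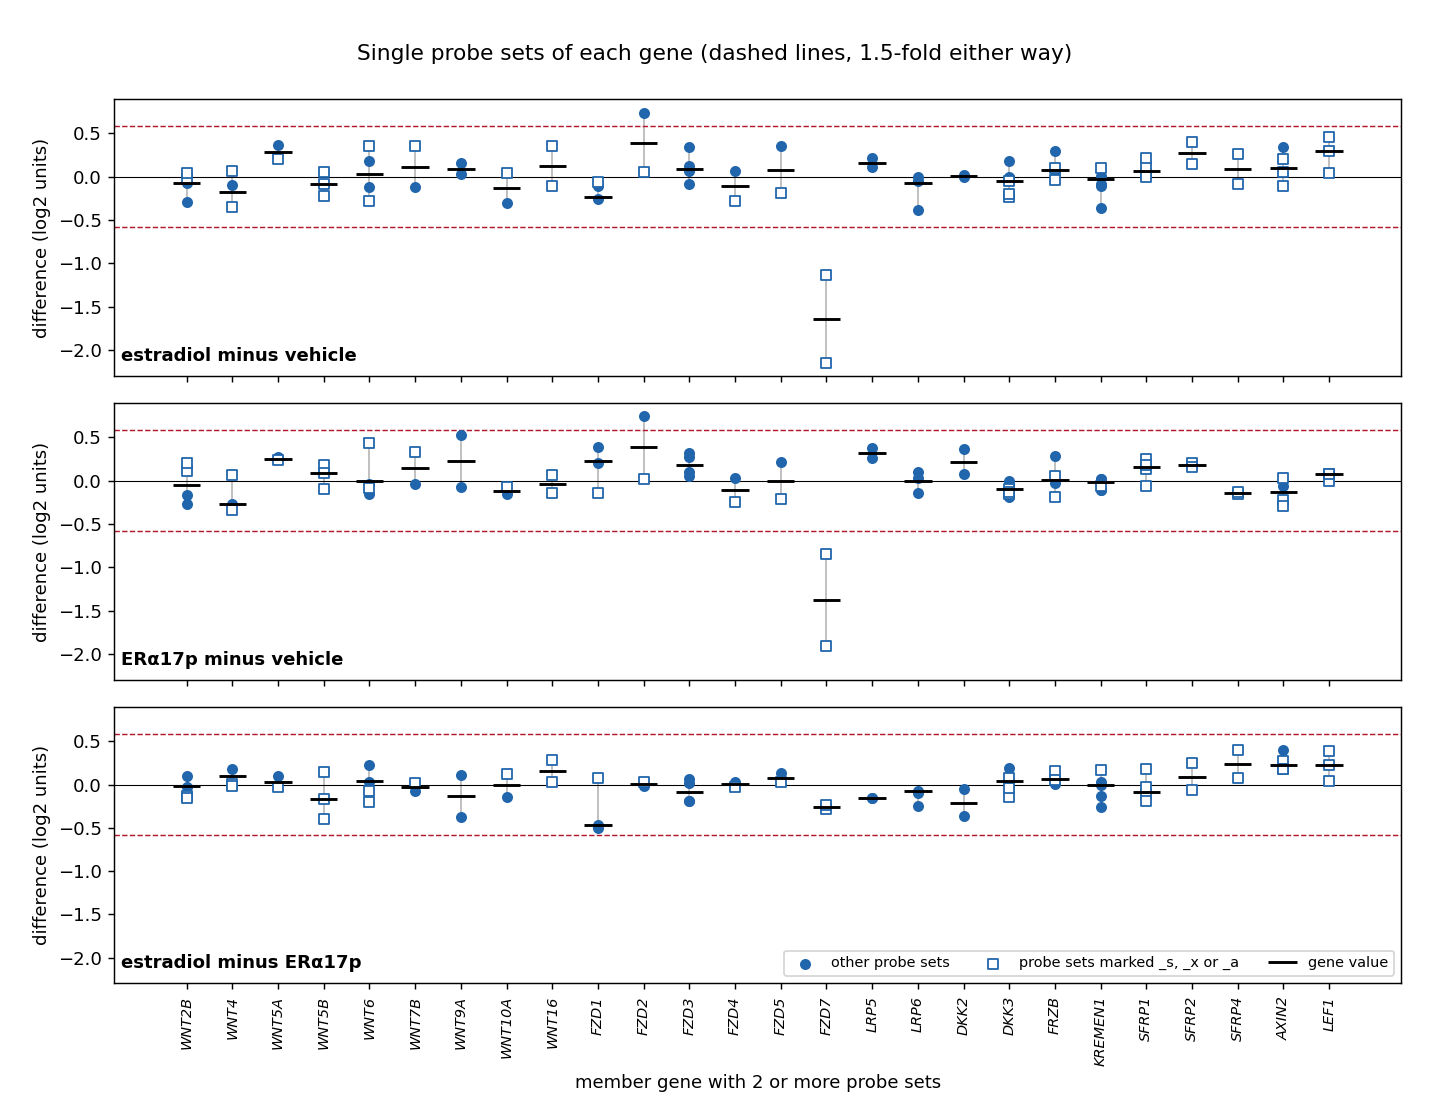
Difference of every probe set of the 26 Wnt genes with at least 2, in log2 units, in panels for the 3 comparisons; black bars are the gene values, open squares probe sets marked _s, _x or _a, and dashed lines 1.5-fold either way. Both FZD7 probe sets are below the lower line in the comparisons with vehicle, whereas 1 FZD2 probe set is above the upper line and the other is near 0.

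Other genes of the pathway were described from 4 lists, chosen with earlier results of these arrays known. They hold none of the Wnt genes above, so the list of reported β-catenin targets leaves out DKK1, AXIN2, LEF1, RNF43 and ZNRF3. Its count of higher genes thus does not cover DKK1, and its shares describe the listed genes only. Among genes for Wnt export and diffusible regulators such as the R-spondins, 0 of 11 measured were higher or lower in any comparison. The same held for 35 genes of intracellular transduction. Of all genes 3.74% passed either way with estradiol, 2.73% with ERα17p and 0.354% between them, so counts of 0 in lists this small are no trait of them. Gene values of the 35 lay between -0.47 and 0.49 with estradiol and between -0.33 and 0.49 with ERα17p. Their single probe sets ran further, from -1.34 to 0.56 with estradiol and from -1.14 to 0.60 with ERα17p. CTNNB1, the gene of β-catenin itself, differed by -0.09 and -0.04. Of 13 other receptors 1 was lower (7.69%, against 2.93% of all genes with estradiol and 2.14% with ERα17p). It was CELSR3, a planar polarity cadherin, by -0.72 with estradiol and -0.71 with ERα17p. Of its 2 probe sets only 1 passed 1.5-fold, at -1.08 and -0.92, and the other lay at -0.37 and -0.49. Of 30 measured genes reported as targets of β-catenin, 0 were higher and 5 lower with estradiol (16.7% lower, against 2.93% of all genes), and 0 were higher and 4 lower with ERα17p (13.3%, against 2.14%). Between estradiol and ERα17p 1 was higher and 1 lower. The list's median was -0.02 and -0.03, against 0.03 for all genes in both.

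Only the listed targets past 1.5-fold in at least 1 comparison are named here, and they do not stand for the whole list. Among them JUN, an AP-1 gene, differed by -1.72 with estradiol and -1.61 with ERα17p. The BMP and TGF-β decoy receptor gene BAMBI had -1.70 and -1.25, the transcription factor gene SOX9 -1.29 and -1.25, and the urokinase receptor gene PLAUR -0.79 and -0.78. The 3 PLAUR probe sets ran from -0.83 to -0.18 with estradiol and from -0.79 to -0.16 with ERα17p. ID2, an inhibitor of helix-loop-helix factors, was lower in both comparisons that involve the estradiol array, by -1.16 against vehicle and by -1.19 against ERα17p, and it differed by 0.03 for ERα17p minus vehicle. FOSL1, another AP-1 gene, was higher by 0.78 for estradiol minus ERα17p.

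Genes with a pattern like that of DKK1 were sought by the smallest Euclidean distance over the 3 array values, a measure that rests on 3 points per gene. The nearest were AQP11, a water channel gene (distance 0.31), LINC02254 (0.44), SLITRK6 (0.47), CCNF, the gene of cyclin F (0.50), and HJURP, a centromere chaperone gene (0.50). AQP11 was at 0.17 on the estradiol array, -0.04 on the ERα17p array and -1.13 on the array labelled vehicle. DKK1 lay higher on the estradiol array than all 5, whose values there ran from -0.01 to 0.30. Of all 19775 genes, 47 were higher with both treatments against vehicle, and of the 45 Wnt genes 1 was, DKK1. Lower with both were 381 of all genes and 1 of the 45, FZD7. Genes higher with estradiol against both other arrays numbered 11 of 19775, and 0 of the 45 Wnt genes. With so few such genes among all, that count of 0 is no trait of the Wnt genes.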

How the data were processed

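Gene expression was measured in 3 RNA samples of SKBR3 cells, 1 Affymetrix array each, grouped by the sample titles. Whether they stem from separate experiments is not stated. The authors used RMA per the submitters' processing notes, without a version. Its usual output is log2, and the deposited values were taken as log2 for that reason, since no source names the base. Column medians near 0, and exact mirror images around 0 in a pair of columns for 3979 probe sets (7.28%, tolerance 1e-06, values over 0.001), are what subtracting, per probe set, a median over these and further arrays would give. No source records that step, and further arrays were not analysed here.

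Symbols came from the platform annotation. Of 54675, 41091 had 1 symbol, 1801 several, 62 were controls and 11721 unnamed here; only the first were used. Entrez IDs matched the GRCh38.p14 gene table for 95 of 95 Wnt probe sets and changed 0 symbols. Gene values were medians over probe sets, with no filter, because levels are unknown. No test was possible with single arrays, so counts at 1.5-fold were taken. The calculation was run on simulated arrays with known changes, with noise set from estradiol minus ERα17p. Over all genes that difference had a standard deviation of 0.16 log2 units, against 0.30 and 0.27 for estradiol and ERα17p minus vehicle. The run therefore checks the arithmetic and not the calls against vehicle. The Wnt genes, the lists and the motifs were chosen with earlier results of these data known. Named genes were those past 1.5-fold, the 5 with the widest difference per comparison, those next to the threshold and the feedback genes; other Wnt genes were named by role. From the lists, those past 1.5-fold were named; CTNNB1 was added for its role after its values were seen. Alternatives were the mean over probe sets, leaving out probe sets marked _x, _s, _a or _g, centring each array, thresholds of 2-fold and of 0.322 log2 units, single probe sets, and the baseline in place of the array labelled vehicle. Python 3.11.15, numpy 2.4.6, pandas 2.3.3 and matplotlib 3.10.9 were used. The number of arrays limits the precision.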

Additional observations from a re-analysis of the deposited data

Results flagged for a closer look

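Probe sets with several gene symbols were left out of the gene values. One of the 3 that name WNT3 beside an uncharacterised locus was higher by 0.68 log2 units for ERα17p minus vehicle, past 1.5-fold, a difference seen in data that no comparison above used. It was at 0.29 on the ERα17p array and -0.39 on the array labelled vehicle. The other probe sets of that pair of symbols differed by 0.47 and -0.02, so the 3 readings did not agree in size. The difference has no replicate check.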

How the results depend on the processing

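Centring each array on its gene median and taking the mean over probe sets kept every count of higher and lower Wnt genes and named the same genes. With the baseline in place of the array labelled vehicle, 0 genes were higher and 0 lower with estradiol and with ERα17p. Of all genes only 0.00506% were then higher and 0.0506% lower with estradiol, and 0.0657% and 0.00506% with ERα17p. Counts of 0 are thus no trait of the Wnt genes. DKK1 then lay at 0.47 with estradiol and at -0.014 with ERα17p (sign reversed), and FZD7 at -0.24 with estradiol and, reversed, at 0.017 with ERα17p. Without probe sets marked _x, _s, _a or _g, 37 of the 45 genes remained measurable and FZD7 was not among them. With estradiol 3 genes were then higher and 0 lower, and with ERα17p 2 were higher and 1 lower, FZD2 joining the higher ones. Of all genes 1.12% were then higher and 2.97% lower with estradiol, and 0.733% and 2.22% with ERα17p. At 2-fold, DKK1 was the 1 higher and FZD7 the 1 lower gene with estradiol and likewise with ERα17p, where 0.0101% and 0.895% of all genes were higher and lower with estradiol, and 0.0152% and 0.738% with ERα17p. At a threshold of 0.322 log2 units, 5 were higher and 2 lower with estradiol (7.65% and 8.49% of all genes), 4 were higher and 2 lower with ERα17p (5.85% and 6.98%), and 1 was higher and 2 lower for estradiol minus ERα17p (2.98% and 2.41%). By single probe sets, 2 were lower with estradiol and 2 higher with ERα17p (3.71% and 0.886% of all). Medians of the set, all within 0.13 log2 units of 0, moved by over 1.5 times under several of these. The causes were not tested beyond what each change itself leaves out. A filter on low values was not run, because the values are not levels. No paired analysis was possible because each group has 1 array. Signal over background is unknown.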

Other observations

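The 3 probe sets that name FZD8 beside a microRNA gene, also left out above, did not pass 1.5-fold. They differed by 0.49, -0.51 and -0.21 for estradiol minus vehicle and by 0.31, -0.41 and -0.56 for ERα17p minus vehicle, so that their signs were mixed.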
